A study of Mus musculus with 6 samples.

Results

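The genes of Polycomb repressive complex 1 (PRC1) were examined here in tissue labelled hypothalamus from mice with diet-induced obesity (DIO mice) that received the KDM6 inhibitor GSK-J4 or its vehicle. The genes were Ring1, Rnf2, Bmi1, Cbx2, Cbx6, Cbx7, Cbx8, Phc1 and Phc2, and every array probe whose gene name equals 1 of these 9 symbols was taken, which gave 21 of the 56605 probes on the array, or 9 of its 37074 gene names. The data are 1-colour Agilent SurePrint G3 mouse arrays, 6 in number, of which 3 are labelled GSK-J4 and 3 vehicle, with a different mouse for each array of a group. All mice were male C57BL/6J on a high-fat diet with 60 kcal% fat for 16 weeks from 6 weeks of age. GSK-J4 was dosed at 30 mg kg−1 and the vehicle group received none, and tissue was taken at ZT 6 h, ZT being hours after lights on. The submitters give day 4 of exposure as the time of the tissue, and the methods of the study a longer course of daily injections. The drug was given to the whole animal and inhibits both KDM6A and KDM6B, and the arrays measured all cells of the tissue together, so that fewer cells of a type and less RNA per cell cannot be told apart.

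PRC1 is a group of chromatin complexes that attach ubiquitin to a lysine near the end of histone H2A. Each holds a RING1 or RNF2 protein, the E3 ligases, and a PCGF partner such as BMI1. In the canonical forms a CBX protein reads H3k27me3, the mark that PRC2 writes and the KDM6 demethylases remove, and a polyhomeotic protein (PHC) links complexes to each other. The question put to the arrays was whether RNA of these subunits differed between mice given the demethylase inhibitor and mice given vehicle.

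Several features of the arrays bear on every value below. The GSK-J4 arrays share a slide and a scan and the vehicle arrays share another slide and scan, so that slide, scan and treatment cannot be told apart. Before normalization the signal at the 75th percentile lay between 407 and 461 on GSK-J4 arrays and between 788 and 916 on vehicle arrays, and the share of probes well above background was 57.7% to 58.7% against 62.8% to 63.6%. Of 15 hypothalamic marker genes, 8, among them Pomc, Npy, Hcrt and Oxt, were well above background on all 6 arrays, whereas Nkx2-1, Sim1 and Otp were so on none and Avp, Pmch and Trh on 3. Of 6 forebrain genes, 5, among them Neurod6 and Emx1, were well above background on all 6 arrays, and Drd2 was so on none. All 6 choroid plexus markers were detected on all 6 arrays, and their summed signal, as log2, ran from 11.55 to 13.57 in the GSK-J4 group and from 11.62 to 16.75 in the vehicle group, the highest value being that of vehicle replicate 1. The log2 fold changes are therefore also given without that array, and the part of these cells in them was not tested.

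Of the 21 PRC1 probes, 18 passed the filter, which asks for detection well above background on the 3 arrays of either group, and were tested, with at least 1 probe for each of the 9 genes. The other 3 are all Phc2 probes, well above background on none of the arrays. Among the 18, 1 probe of Cbx7 was higher and 1 probe of Rnf2 was lower in the GSK-J4 group at an adjusted p of at most 0.05 (limma, Benjamini-Hochberg adjustment over 34443 probes). That is 11.1% of the PRC1 probes, against 16.8% of all probes tested, of which 8.39% were higher and 8.42% lower. With a fold change of 1.5 and an unadjusted p of 0.05, the thresholds of the methods, the Rnf2 probe alone was past them, lower, against 12.6% of all probes, of which 4.79% were higher and 7.86% lower. The 3 GSK-J4 arrays did not overlap the 3 vehicle arrays for 5 probes that were higher and 4 that were lower, 50% of the PRC1 probes against 45.6% of all probes (24.5% higher and 21.2% lower). The median log2 fold change, GSK-J4 minus vehicle, was −0.08 over the 18 probes and 0.02 over all probes tested, and 9 of the 18 were above 0 against 52.7% of all probes. The shares of PRC1 probes called and of those that did not overlap were thus near those of the array as a whole.

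**Figure D1:**
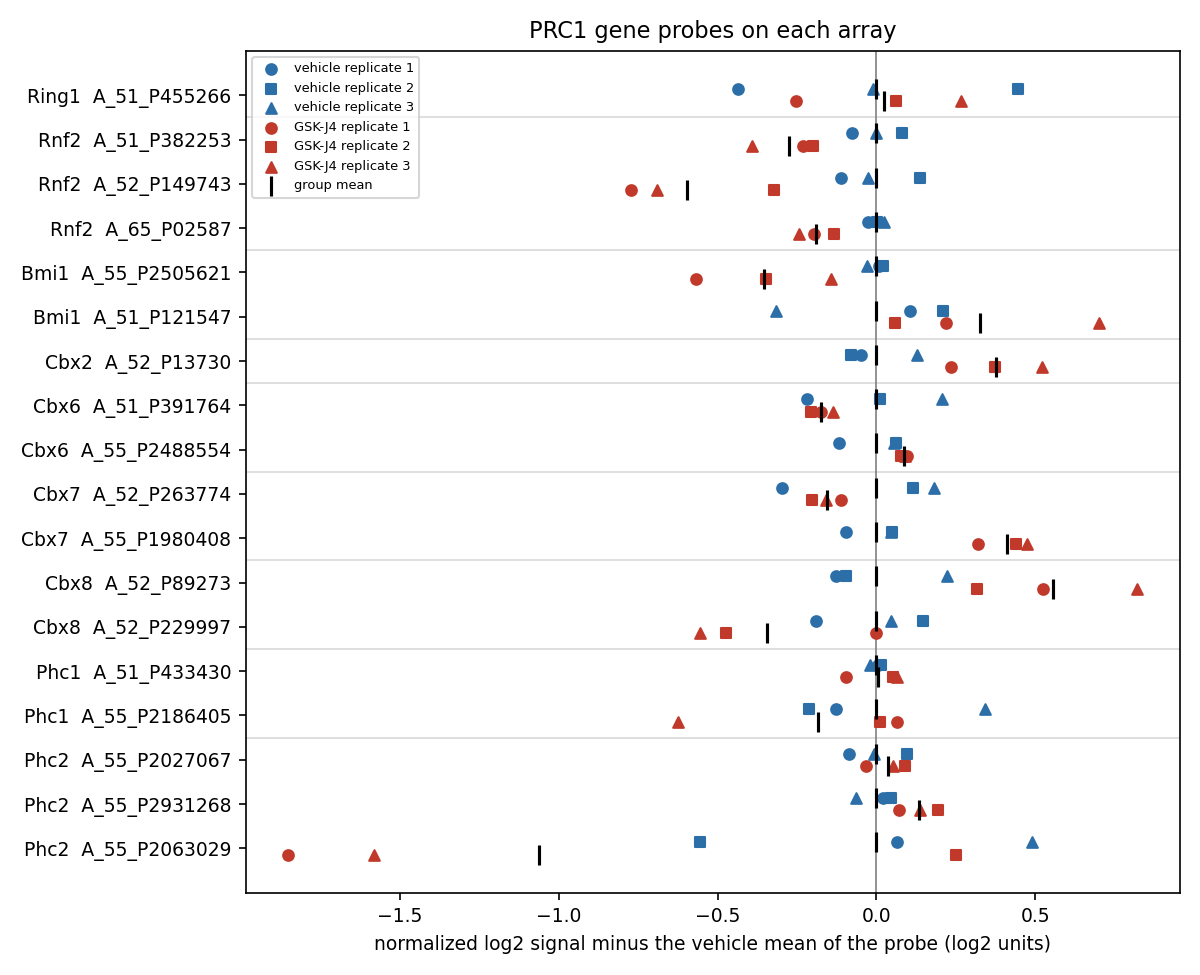
Normalized log2 signal of the 18 tested PRC1 probes on each array, as the difference from the vehicle mean of the same probe (horizontal axis, log2 units), with vehicle arrays in blue, GSK-J4 arrays in red, 1 symbol for each replicate number and a black line at each group mean. The red points lie to the left of the blue points for the 3 Rnf2 probes and to the right for Cbx2 and for A_55_P1980408 of Cbx7, and they overlap for Ring1.

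Rnf2, which encodes the E3 ligase RING1B, was lower in the GSK-J4 group at 1 of its 3 probes, and at the other 2 the arrays lay in the same order without passing the threshold. The sequences of 2 Rnf2 probes are shown because their estimated changes were of unequal size although they belong to the same gene. In the test against the other probes of the gene, described below, neither passed (limma adjusted p = 0.133 for A_52_P149743 and 0.189 for A_65_P02587). Bases are written 5′ to 3′ with G and C in capitals, since base composition is taken up below.
Rnf2 A_65_P02587: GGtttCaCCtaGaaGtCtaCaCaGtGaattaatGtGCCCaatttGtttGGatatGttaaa
Rnf2 A_52_P149743: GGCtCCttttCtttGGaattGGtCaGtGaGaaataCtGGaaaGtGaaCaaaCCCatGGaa
The files place the first at chr1:153324074-153324133 and the second at chr1:153318479-153318538, both on the minus strand of mm9. G and C make up 35% and 41.7% of their 60 bases. No mm9 gene annotation was used here, so exons and UTRs are not given for the probes.

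At A_52_P149743, log2 signal was 6.07, 6.52 and 6.15 on the GSK-J4 arrays and 6.73, 6.98 and 6.81 on the vehicle arrays. Every GSK-J4 array was thus below every vehicle array. The group means were 6.24 ± 0.24 and 6.84 ± 0.13 (SD, n = 3 arrays each), a log2 fold change of −0.60 (SE 0.14, 95% interval −0.95 to −0.24, limma adjusted p = 0.044) or a signal 1.51-fold lower. The call did not pass the threshold when GSK-J4 replicate 1 was left out (limma adjusted p = 0.099), nor without GSK-J4 replicate 3 (0.089) or vehicle replicates 1 (0.091), 2 (0.134) or 3 (0.119), and it did without GSK-J4 replicate 2 (0.027). The log2 fold change over these 6 fits was −0.73 to −0.51. With normexp background correction it was −0.31 (limma adjusted p = 0.054), and over 12 alternatives that kept all arrays, that one included, the adjusted p was 0.024 to 0.154.

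At A_51_P382253 (chr1:153316987-153317046, minus strand), the Rnf2 probe with the highest mean signal, log2 signal was 10.45, 10.49 and 10.29 in the GSK-J4 group and 10.61, 10.77 and 10.68 in the vehicle group. The groups again did not overlap, with a log2 fold change of −0.27 (SE 0.09, 95% interval −0.49 to −0.06, limma adjusted p = 0.082). At A_65_P02587 log2 signal was 6.12, 6.19 and 6.08 against 6.29, 6.33 and 6.35. Here the arrays within a group lay closer together and the log2 fold change was −0.19 (SE 0.07, 95% interval −0.36 to −0.02, limma adjusted p = 0.105). Under normexp background correction A_51_P382253 was the Rnf2 probe that was called (−0.34, limma adjusted p = 0.018), and under scaling to the 75th percentile A_65_P02587 was called beside A_52_P149743 (−0.32, limma adjusted p = 0.031). An exact permutation test over the 20 orders of 3 arrays against 3 gave p = 0.1 for each of the 3 probes, the smallest it can give. The mean of the 3 Rnf2 probes differed by −0.35 (95% interval −0.58 to −0.13, limma adjusted p = 0.051 over 22117 genes). Without vehicle replicate 1 the 3 probes stood at −0.65, −0.31 and −0.20, in the order described.

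Ring1 encodes RING1A, the other E3 ligase, and has 1 probe on the array, A_51_P455266 (chr17:34158164-34158223, minus strand). Its log2 signal was 7.80, 8.11 and 8.32 in the GSK-J4 group and 7.61, 8.50 and 8.04 in the vehicle group. The vehicle arrays held both the lowest and the highest value, so the groups overlapped. The log2 fold change was 0.02 (SE 0.25, 95% interval −0.60 to 0.65, limma adjusted p = 0.953), an interval that leaves room for a change in either direction as large as that of the called Rnf2 probe. Without vehicle replicate 1 it was −0.19. Whether Rnf2 and Ring1 differ from each other in their change was not tested.

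Bmi1 encodes PCGF4, the partner that stabilizes the ligase in canonical PRC1, and its 2 probes differed in sign. At A_55_P2505621 (chr2:18607402-18607461, plus strand) log2 signal was 11.00, 11.22 and 11.42 in the GSK-J4 group and 11.58, 11.59 and 11.54 in the vehicle group. The 3 vehicle arrays were close together and above every GSK-J4 array, with a log2 fold change of −0.35 (SE 0.12, 95% interval −0.65 to −0.06, limma adjusted p = 0.093). It passed the threshold when GSK-J4 replicate 3, the highest GSK-J4 value, was left out (−0.46, limma adjusted p = 0.048), and that fit is not used as support. The adjusted p was up to 0.218 over the fits with 1 array left out. Over 13 alternatives that kept all arrays it was 0.051 to 0.401. At A_51_P121547 (chr2:18605306-18605365, plus strand) log2 signal was 6.94, 6.78 and 7.42 against 6.83, 6.93 and 6.41. These groups overlapped, and the log2 fold change was 0.33 (SE 0.22, 95% interval −0.21 to 0.86, limma adjusted p = 0.321). The mean of the 2 probes differed by −0.01 (95% interval −0.39 to 0.37).

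The CBX genes encode the subunits that bind H3k27me3 through a chromodomain. Of their 7 tested probes, 1 of Cbx7 was called. Cbx2 has 1 probe, A_52_P13730 (chr11:118892363-118892422, plus strand), with log2 signal of 6.710, 6.849 and 6.995 in the GSK-J4 group and 6.427, 6.393 and 6.603 in the vehicle group. Every GSK-J4 array was above every vehicle array. The log2 fold change was 0.38 (SE 0.11, 95% interval 0.11 to 0.64, limma adjusted p = 0.063). It passed the threshold after the trend of the signal on probe GC content was removed from each array (0.48, limma adjusted p = 0.045). Over 13 alternatives that kept all arrays, that one included, the adjusted p was 0.045 to 0.188. With 1 array left out it was 0.068 to 0.178.

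Cbx7 encodes a CBX protein of canonical PRC1 known for repression of the Ink4a/Arf locus. At A_55_P1980408 (chr15:79748605-79748664, minus strand) log2 signal was 5.76, 5.88 and 5.91 in the GSK-J4 group and 5.35, 5.49 and 5.49 in the vehicle group. The 2 groups did not overlap and varied little within themselves, with means of 5.85 ± 0.08 and 5.44 ± 0.08 (SD, n = 3 arrays each). The log2 fold change was 0.41 (SE 0.08, 95% interval 0.21 to 0.62, limma adjusted p = 0.031), or a signal 1.33-fold higher. The call did not pass the threshold when any of the 6 arrays was left out: the limma adjusted p was 0.0502, 0.067 and 0.061 without GSK-J4 replicates 1, 2 and 3, and 0.084, 0.094 and 0.091 without vehicle replicates 1, 2 and 3. The log2 fold change over those fits was 0.36 to 0.46, and with normexp background correction it was 0.20 (limma adjusted p = 0.068), the adjusted p over 12 alternatives that kept all arrays, that one included, being 0.025 to 0.118.

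The probe of Cbx7 with the higher mean signal, A_52_P263774 (chr15:79746268-79746327, minus strand), had log2 signal of 10.33, 10.24 and 10.29 in the GSK-J4 group and 10.15, 10.56 and 10.63 in the vehicle group. The 3 GSK-J4 arrays lay between the lowest vehicle array, replicate 1, and the other two. The log2 fold change was −0.16 (SE 0.14, 95% interval −0.50 to 0.19, limma adjusted p = 0.455), and without vehicle replicate 1 it was −0.31. The mean of both Cbx7 probes differed by 0.13 (95% interval −0.13 to 0.38, limma adjusted p = 0.412 over genes), so the call at 1 probe was not a call for the gene.

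Cbx8, a further CBX gene of canonical PRC1, also had 2 probes that went opposite ways. At A_52_P89273 (chr11:118897653-118897712, minus strand) log2 signal was 8.56, 8.35 and 8.85 in the GSK-J4 group and 7.90, 7.94 and 8.26 in the vehicle group. All 3 GSK-J4 arrays were higher, with a log2 fold change of 0.56 (SE 0.16, 95% interval 0.15 to 0.96, limma adjusted p = 0.070). At A_52_P229997 (chr11:118899777-118899836, minus strand) log2 signal was 7.13, 6.66 and 6.58 against 6.95, 7.28 and 7.18. Here GSK-J4 replicate 1 lay within the vehicle range and the other two below it, with a log2 fold change of −0.34 (SE 0.18, 95% interval −0.78 to 0.09, limma adjusted p = 0.214).

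Cbx6 encodes a CBX protein abundant in brain. At A_51_P391764 (chr15:79656576-79656635, minus strand) log2 signal was 14.07, 14.04 and 14.11 in the GSK-J4 group and 14.02, 14.26 and 14.45 in the vehicle group, a log2 fold change of −0.17 (95% interval −0.47 to 0.12, limma adjusted p = 0.342). At A_55_P2488554 (chr15:79654337-79654396, minus strand) it was 12.96, 12.94 and 12.95 against 12.74, 12.92 and 12.92, a log2 fold change of 0.09 (95% interval −0.11 to 0.28, limma adjusted p = 0.464). The groups overlapped at the first probe and did not at the second, and neither interval excluded 0. The sign of the first probe turned under scaling to the 75th percentile (0.14) and after removal of the GC trend (0.15).

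**Figure D2:**
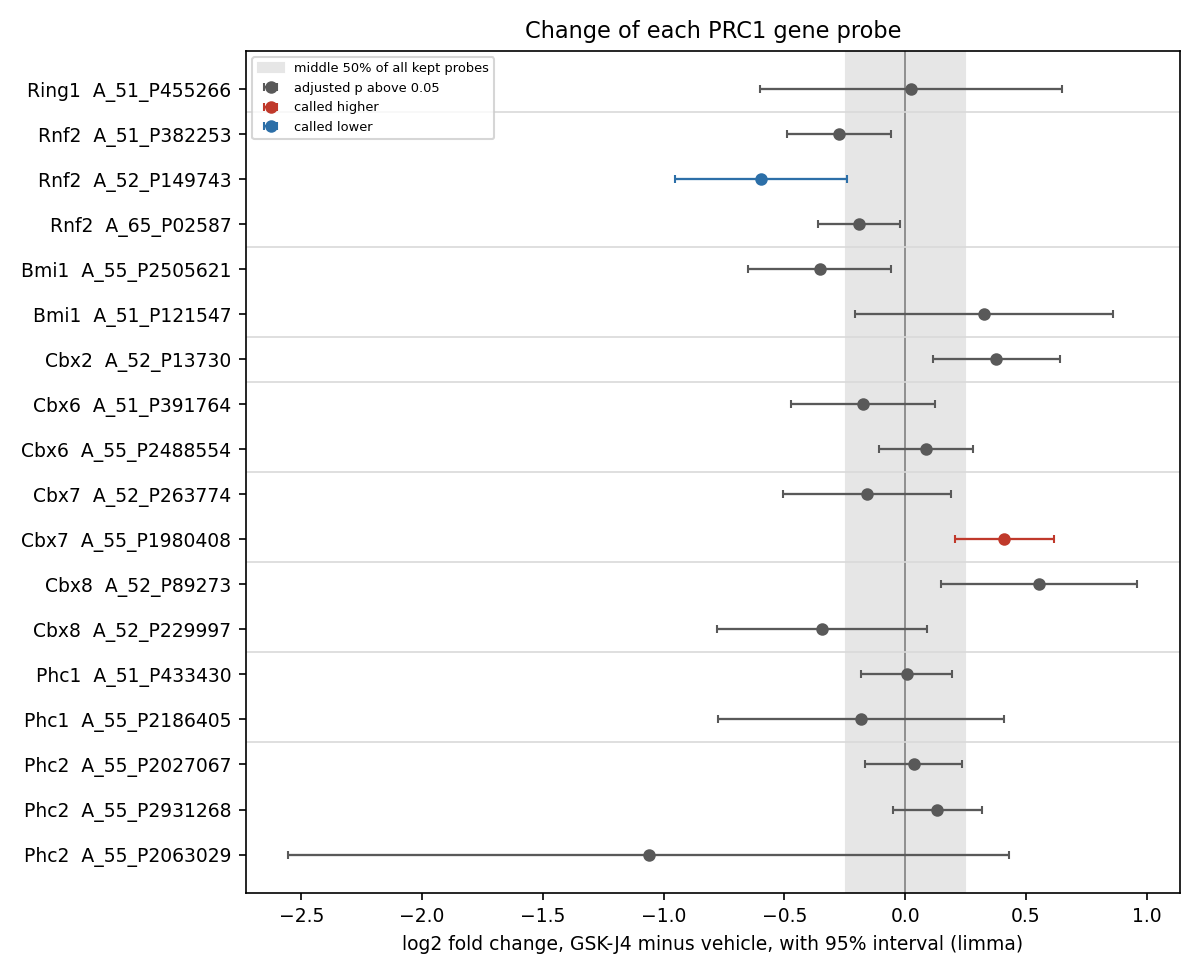
Log2 fold change, GSK-J4 minus vehicle, of the 18 tested PRC1 probes (horizontal axis) with 95% intervals from limma. Red and blue mark the probe called higher (Cbx7) and the probe called lower (Rnf2), and the grey band, from −0.24 to 0.25, holds the middle 50% of all probes tested.

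The PHC genes encode the polyhomeotic proteins, which join PRC1 complexes through their SAM domain, and none of their 5 tested probes was called. Phc1 at A_51_P433430 (chr6:122268043-122268102, minus strand), its probe with the highest mean signal, had log2 signal of 9.92, 10.06 and 10.08 in the GSK-J4 group and 10.02, 10.03 and 9.99 in the vehicle group. The vehicle arrays lay inside the range of the GSK-J4 arrays, and the log2 fold change was 0.01 (SE 0.08, 95% interval −0.18 to 0.19, limma adjusted p = 0.959). The other Phc1 probe, A_55_P2186405 (chr6:122288521-122288580, minus strand), was well above background on 2 of 3 GSK-J4 arrays and differed by −0.18 (95% interval −0.78 to 0.41, limma adjusted p = 0.614).

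Phc2 at A_55_P2027067 (chr4:128430039-128430098, plus strand), its probe with the highest mean signal, had log2 signal of 12.86, 12.98 and 12.94 in the GSK-J4 group and 12.80, 12.99 and 12.88 in the vehicle group. These groups overlapped, with a log2 fold change of 0.04 (SE 0.08, 95% interval −0.17 to 0.24, limma adjusted p = 0.776). A second Phc2 probe is printed because its 60 bases are placed across 718 bases of the genome, chr4:128422320-128423037 on the plus strand of mm9, and because it is the most GC-rich of the tested PRC1 probes at 56.7%.
Phc2 A_55_P2931268: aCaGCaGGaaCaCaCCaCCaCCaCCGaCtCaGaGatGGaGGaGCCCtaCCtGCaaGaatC
Its log2 signal was 7.22, 7.35 and 7.29 in the GSK-J4 group and 7.17, 7.20 and 7.09 in the vehicle group. The groups did not overlap, but the difference of 0.13 (SE 0.07, 95% interval −0.05 to 0.32, limma adjusted p = 0.244) did not pass the threshold. The third tested Phc2 probe, A_55_P2063029 (chr4:128419268-128419327, plus strand), was well above background on 1 of 3 GSK-J4 arrays and 3 of 3 vehicle arrays. Its log2 signal of 2.84, 4.95 and 3.11 against 4.76, 4.14 and 5.19 overlapped, and its interval, −2.55 to 0.43, was the widest among the PRC1 probes. It passed the filter through the vehicle group alone, and with all arrays the limma adjusted p was 0.257. Leaving out GSK-J4 replicate 2, the only GSK-J4 array on which it was detected, gave a signal at least 1.20-fold higher in the vehicle group (means 2.98 and 4.70). Leaving that array out removes the highest GSK-J4 value, so that fit is not used as support. The remaining Phc2 probes, A_55_P2063033, A_52_P424620 and A_55_P2840044, had log2 signals of 1.84 to 2.71 on the 6 arrays and are not given a change.

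For Bmi1, Cbx6, Cbx7 and Cbx8 the array holds a pair of probes, and in each pair 1 probe has a GC content of 45% and the other a lower GC content, 35%, 30%, 28.3% and 18.3% in that order. In these 4 genes the 45% probe had the higher log2 fold change, by 0.68 for Bmi1, 0.26 for Cbx6, 0.57 for Cbx7 and 0.90 for Cbx8. The other genes with several tested probes did not follow that order. The Phc1 probe at 41.7% differed from the one at 36.7% by −0.19, the Rnf2 probe at 41.7% had a log2 fold change of −0.60 beside −0.27 and −0.19 at 35%, and the Phc2 probe at 46.7% had −1.06 beside 0.04 at 35% and 0.13 at 56.7%. Whether a probe changed differently from the other probes of its gene was tested across the 20235 probes that share a gene with another tested probe, of which 9.23% passed an adjusted p of 0.05. Of the 16 PRC1 probes in that test none passed it in limma, and 9 had an unadjusted p of at most 0.05, against 29.2% of all probes in the test. The probes of a pair mirror each other in this test and share a p, so 8 of the 9 are the 4 pairs above and the other is Rnf2 A_52_P149743. The adjusted p was 0.070 for Bmi1, 0.167 for Cbx6, 0.0505 for Cbx7 and 0.070 for Cbx8. The choice of these 4 pairs was made with the values known.

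The same gradient ran through the whole array. Among all probes tested with a GC content of 16.7% to 36.7%, 1.94% were called higher and 14.9% lower, and their median log2 fold change was −0.14. Among those with 46.7% to 88.3%, 20% were called higher and 1.67% lower, with a median of 0.23. The PRC1 probes are AT-rich beside the array, with a median GC content of 36.7% against 43.3%, and the number with a log2 fold change above 0 was 4 of 10 at a GC content of 16.7% to 36.7%, 0 of 2 at 38.3% to 43.3%, 4 of 4 at 45% and 1 of 2 above that, so it did not climb steadily with GC content. After the trend of the signal on GC content was removed from each array, the differences within the pairs were 0.44 for Bmi1, −0.14 for Cbx6, 0.11 for Cbx7 and 0.11 for Cbx8. With that removal the called Rnf2 probe stood at −0.60 (limma adjusted p = 0.057) and the other Rnf2 probes at −0.10 and −0.02, and the called Cbx7 probe stood at 0.34 (limma adjusted p = 0.059). The signs of A_52_P263774 of Cbx7 (0.22), A_52_P229997 of Cbx8 (0.37) and A_55_P2931268 of Phc2 (−0.14) turned, and the median over the 18 PRC1 probes was 0.13, against 0.0023 over all probes. The sign of the median change of PRC1 probes thus differed with and without the removal of the GC trend.

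**Figure D3:**
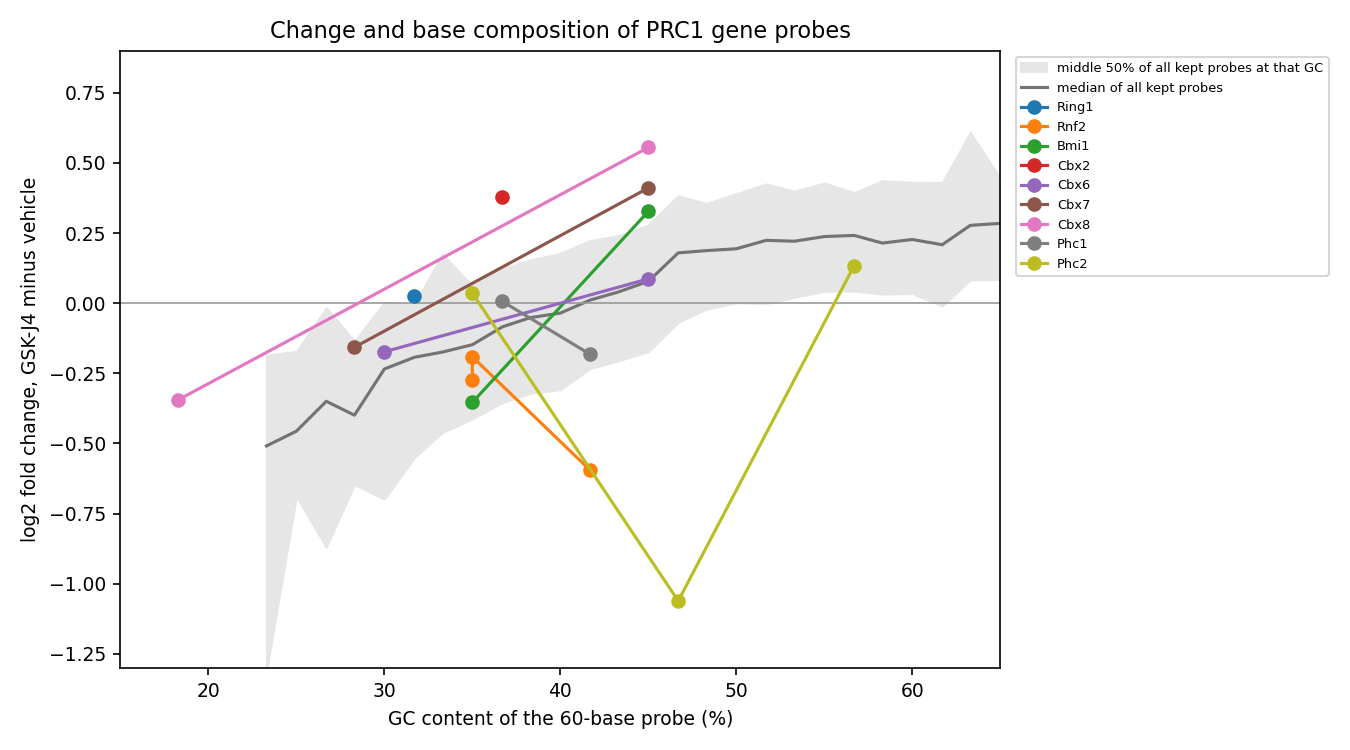
Log2 fold change, GSK-J4 minus vehicle, of PRC1 probes (vertical axis) against the GC content of the probe in percent (horizontal axis), with probes of a gene joined by a line. The grey line and band are the median and the middle 50% of all tested probes at each GC content, and in the pairs of Bmi1, Cbx6, Cbx7 and Cbx8 the probe at 45% lies above the other.

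The other subunits of PRC1 complexes, 22 genes with 55 tested probes, had 0 probes called higher and 4 called lower, 7.27% against 16.8% of all probes, and their median log2 fold change was −0.15. By size of change, the genes past either threshold were led by Phc3, the third polyhomeotic gene (A_55_P2127238, −1.37, SE 0.50, limma adjusted p = 0.111, well above background on 1 of 3 GSK-J4 arrays), Bcorl1, a partner of PCGF1 complexes (A_55_P2720586, −0.96, SE 0.18, limma adjusted p = 0.026), and Scmh1, a Polycomb protein with a SAM domain (A_55_P2715910, −0.79, SE 0.21, limma adjusted p = 0.054). Pcgf3 followed, with a probe that was well above background on no GSK-J4 array and is given no fold, and with A_51_P182456 lower by −0.36 (SE 0.08, limma adjusted p = 0.036). The remaining calls, named after their values were seen, were Pcgf6 (−0.65, limma adjusted p = 0.038) and E2f6, a DNA-binding factor of PCGF6 complexes (−0.52, limma adjusted p = 0.042). Each of these genes has further tested probes that were not called.

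In PRC2, which writes H3k27me3, 2 of 28 probes of 12 genes were called higher and 2 lower, 14.3% against 16.8% of all probes. Their median log2 fold change was 0.00. Ezh2, its methyltransferase, was higher at 1 of 5 probes (A_55_P2619332, 0.55, SE 0.10, limma adjusted p = 0.026). Suz12, a core subunit, was lower at 1 of 3 probes, A_55_P2642951. It was well above background on no GSK-J4 array, so that signal was at least 1.24-fold higher in the vehicle group (means 3.44 and 4.82). This Suz12 probe passed the filter through the vehicle group alone, so its call, counted above, is not used as support. The histone-binding subunits Rbbp4 and Rbbp7 had probes at −0.62 (limma adjusted p = 0.060) and −0.59 (limma adjusted p = 0.065). Both were past the thresholds of the methods only, with the unadjusted p of limma. A second Rbbp7 probe was called (−0.28, limma adjusted p = 0.047). Phf1, an accessory subunit named after its value was seen, was higher (0.50, limma adjusted p = 0.036).

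The demethylases that GSK-J4 binds were measured as a check of the targets, although an enzyme inhibitor need not alter the RNA of its target. Kdm6a had 3 tested probes, of which 1 stood at 0.05 (limma adjusted p = 0.660) and 1 at −0.51 (limma adjusted p = 0.171). The remaining probe, A_55_P2738212, was well above background on no GSK-J4 array and at least 1.39-fold higher in the vehicle group (means 4.33 and 4.98). This Kdm6a probe passed the filter through the vehicle group alone, so its call is not used as support. Kdm6b had log2 signal of 10.41, 10.34 and 10.60 in the GSK-J4 group and 10.09, 10.32 and 10.19 in the vehicle group, a log2 fold change of 0.25 (95% interval −0.01 to 0.51, limma adjusted p = 0.148). Uty, the related gene on the Y chromosome, differed by 0.01 (limma adjusted p = 0.989) at 1 probe and by −1.41 (SE 0.28, limma adjusted p = 0.030) at the other. The estimates differed between probes within Kdm6a and within Uty, and no test of these differences is given.

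For the 8 genes of enzymes that remove the PRC1 mark from H2A and of their cofactors, 3 of 20 probes were called higher and 2 lower. That is 25%, against 16.8% of all probes (8.39% higher and 8.42% lower), with a median of −0.06. Whether the share differs from that of all probes was not tested. Asxl2, a cofactor of the deubiquitinase BAP1, was lower at 1 of 4 probes (A_55_P2715789, −1.06, SE 0.14, limma adjusted p = 0.016), and Bap1 itself was higher at 1 of 2 (A_52_P680311, 0.79, SE 0.09, limma adjusted p = 0.014). Mysm1 (0.92, limma adjusted p = 0.061) and Usp16 (−0.77, limma adjusted p = 0.093), both H2A deubiquitinases, were past the thresholds of the methods only, with the unadjusted p of limma. At the other Mysm1 probe the log2 fold change had the opposite sign, −1.61 (limma adjusted p = 0.366), but its size rested on GSK-J4 replicate 3. Its log2 signal was 8.78, 8.87 and 4.57 in the GSK-J4 group and 8.80, 9.12 and 9.11 in the vehicle group. The further Usp16 probes stood at −0.26, −0.92 and 0.47 and were not called. At the probes with −0.77 and −0.92, GSK-J4 replicate 3 was the lowest array (5.95 and 9.225), and the other GSK-J4 arrays also lay below every vehicle array. At the probes with −0.26 and 0.47 it was the highest GSK-J4 array. The other calls, named after their values were seen, were Asxl1 (0.63, limma adjusted p = 0.045), Usp21 (0.39, limma adjusted p = 0.037) and Usp22 (−0.58, limma adjusted p = 0.017). In that order, the second probe of each gene stood at 0.03, −0.07 and −0.23 and was not called.

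Of 4 genes at loci known as PRC1 targets, Cdkn2a had no tested probe. In limma 0 of 4 probes of the other genes were called, against 16.8% of all probes. Cdkn1a, which encodes the cell cycle inhibitor p21, was past the thresholds of the methods with the unadjusted p of limma (0.89, SE 0.27, limma adjusted p = 0.075). The Cbx genes of heterochromatin protein 1 read another mark, H3K9 methylation, and belong to no canonical PRC1. They had 0 of 8 probes called higher and 1 lower, or 12.5%. The lower probe was of Cbx1 (A_52_P255804, −0.66, SE 0.09, limma adjusted p = 0.018).

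Leaving out vehicle replicate 1, the array with the high choroid plexus signal, left 10 probes called on the whole array (2 higher and 8 lower, against 2889 and 2899), and 0 in the PRC1 genes and in each list above. The median over the 18 PRC1 probes was then −0.20. Beside the values given above, Bmi1 stood at −0.35 (A_55_P2505621) and 0.38 (A_51_P121547), Cbx2 at 0.35, Cbx8 at 0.49 (A_52_P89273) and −0.44 (A_52_P229997), and Cbx7 A_55_P1980408 at 0.36. Cbx6 stood at −0.28 (A_51_P391764, limma adjusted p = 0.135) and 0.03 (A_55_P2488554), the first larger in size and the second smaller than with all arrays. The Phc1 probes stood at 0.0090 (A_51_P433430) and −0.25 (A_55_P2186405), and those of Phc2 at −0.0080 (A_55_P2027067), 0.14 (A_55_P2931268) and −1.03 (A_55_P2063029). Leaving out vehicle replicate 2 or 3, whose choroid plexus signal was not so high, left 13 and 5 calls on the whole array.

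**Figure D4:**
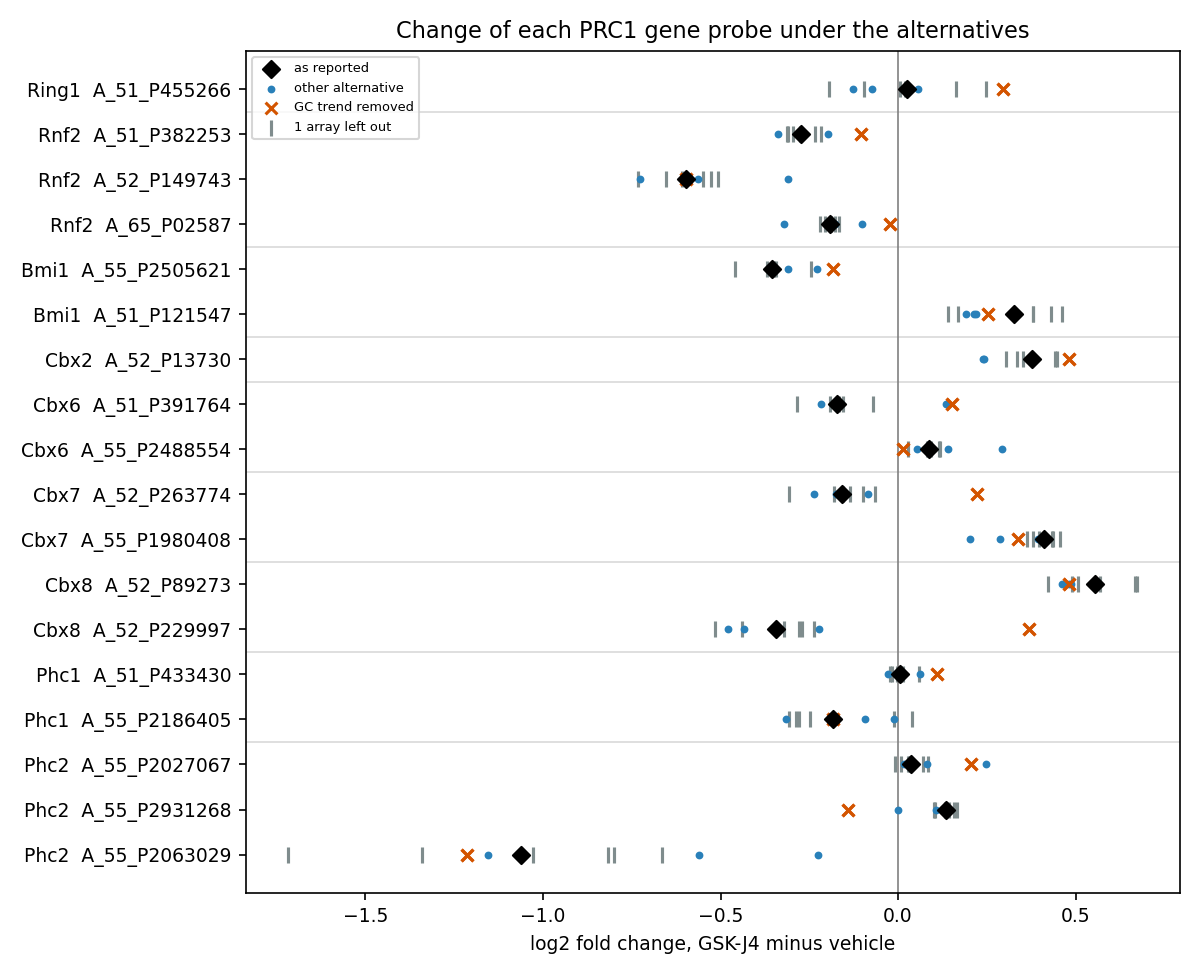
Log2 fold change of each tested PRC1 probe (horizontal axis) as reported (black diamonds), with 1 array left out (grey bars), after removal of the GC trend (orange crosses) and under the other alternatives (blue points). The points of the 3 Rnf2 probes and of Cbx2 and Cbx8 A_52_P89273 stay on 1 side of 0, whereas those of Ring1, Phc1 A_51_P433430 and Cbx6 A_51_P391764 fall on both sides. The leftmost bar of Phc2 A_55_P2063029 is a fitted value from arrays none of which detected it in the GSK-J4 group.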

How the data were processed

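The authors hybridized 1 RNA sample to each of 6 arrays and took spot intensity values with Agilent Feature Extraction (10.7.1.1 per the file headers). The authors further deposited log2 values of every probe, quantile normalized in GeneSpring per the methods. Once sorted, the 6 columns differed by at most 0.00424, and the correlation of each column with its scanner intensities as log2 was at least 0.9992. The values of this table were used for all results, and the deposited intensity files supplied detection flags, probe sequences, mm9 coordinates and the alternatives. Columns were matched to samples by sample name.

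Control spots were left out. Outlier spots were left out of the detection flags and of the alternatives built from scanner signals, whereas the deposited values entered the fits unmasked. A probe with only outlier spots on an array counted as not detected there. A probe was kept if detected well above background on the 3 arrays of either group, as 34443 of 56605 were. GSK-J4 and vehicle were compared by limma (lmFit and eBayes of version 3.58.1, the package data.table, version 1.17.8, R 4.3.3), two-sided, without covariates, and p-values were adjusted over the 34443 probes. The same test was run on each probe minus the mean of the other tested probes of its gene. Both were tested on simulated data. A probe well above background on no array of a group was given a bound, its floor being the lowest detected signal of each array. Within-group correlations of arrays were 0.978 to 0.995, and p-values cover the spread between 3 mice a group only. The number of arrays limits the precision.

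Values in every sample were given for probes that were called, for the probe of each gene with the highest mean, and for others that a comparison uses. In the further lists, up to 4 genes past a threshold were named by size of change, with p from limma for both thresholds. The test of the methods is not given for those genes. The PRC1 genes and the lists were chosen with earlier results of these data known. Alternatives covered the source of the signals, scaling, normexp background correction (offset 50), filters on dim probes, the rule for several probes of a gene, variance models, array weights, t-tests, a GC correction (lowess, span 30%, within each array), the replicate number as a block, and leaving out each array. Counts for the further lists without vehicle replicate 1 and after the GC correction were added after seeing the data. Replicate numbers were taken from the labels. Slide was not fitted, since each group lies on 1 slide. Sequencing, PCR and animal data of the study were not analysed here.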

Additional observations from a re-analysis of the deposited data

How the results depend on the processing

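The count of PRC1 probes called higher was 1 as reported and 0 with scaling to the 75th percentile, normexp correction, 1 probe per gene, the mean of the probes of a gene, the trended robust variance, the methods' t-test, the replicate block and the block with GC correction. The count called lower was 1 as reported, 2 with scaling to the 75th percentile, and 0 with no filter, 1 probe per gene, the mean of the probes, both t-tests, GC correction, the replicate block and the block with GC correction. Under GC correction the probe called higher was that of Cbx2. With normexp correction the probe called lower was Rnf2 A_51_P382253. The count past the thresholds of the methods was 0, in place of 1, with normexp correction, 1 probe per gene, the mean of the probes and array weights. The median log2 fold change was 0.13 under GC correction, with and without the block. The count of PRC1 probes that differed from the other probes of their gene was 4 with normexp correction and 2 among probes detected on all 6 arrays, in place of 0. With 1 array left out the counts were 0 higher, 0 to 2 lower and 0 to 3 past the thresholds of the methods, and the median was −0.20 to −0.0078. Among the 2 lower was Phc2 A_55_P2063029, then detected on no GSK-J4 array. The cause was not tested.

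Signs turned with scaling to the 75th percentile for Ring1 (−0.075), Cbx6 A_51_P391764 (0.14) and Phc2 A_55_P2931268 (−9.98e-05), with normexp correction for Phc1 A_51_P433430 (−0.029) and with array weights for Ring1 (−0.13). Under GC correction, with and without the block, they turned for Cbx6 A_51_P391764 (0.15), Cbx7 A_52_P263774 (0.22), Cbx8 A_52_P229997 (0.37), Phc2 A_55_P2931268 (−0.14) and the Cbx6 pair difference (−0.14). With 1 array left out the range crossed 0 for Ring1 (−0.19 to 0.25), Phc1 A_51_P433430 (−0.023 to 0.058), Phc1 A_55_P2186405 (−0.31 to 0.038) and Phc2 A_55_P2027067 (−0.0080 to 0.083).

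Over all probes, calls were 2889 higher and 2899 lower as reported, 5036 and 3635 with scaling to the 75th percentile, 1485 and 2120 under GC correction, 56 and 37 with the methods' t-test, and 0 and 0 with the block. Without GSK-J4 replicates 1, 2 and 3 they were 973 and 1429, 2075 and 2090, and 1537 and 2481, beside 10, 13 and 5 in all without vehicle replicates 1, 2 and 3. Same-numbered arrays deviated together little (correlations 0.0073, 0.026 and 0.081), so the numbers were not taken as pairs. With the replicate block the adjusted p was 0.080 for Rnf2 A_52_P149743 and 0.083 for Cbx7 A_55_P1980408. The lower signal over background of the GSK-J4 arrays limits what can be said of dim probes, those of Phc1 and Phc2 among them. It bears also on the 2 called probes, which are dimmer than the brightest probe of their gene. Their group means were 6.24 and 6.84 for Rnf2 A_52_P149743 and 5.85 and 5.44 for Cbx7 A_55_P1980408. With normexp correction they stood at −0.31 and 0.20, and neither was called.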
